A study of Mus musculus with 3 samples.

Results

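MHC class I antigen presentation genes were examined in the UMI-RNAseq data of NIH3T3 cells. The set holds 10 genes, chosen by gene name among the 55573 genes listed, and each name was found once. They are the class I chains *H2-K1*, *H2-D1* and *B2m*, the peptide transport genes *Tap1*, *Tap2* and *Tapbp*, the immunoproteasome subunits *Psmb8*, *Psmb9* and *Psmb10*, and the transactivator *Nlrc5*. The data came from 3 libraries of 1 condition. NIH3T3 is an established mouse fibroblast line, and the cells were grown without treatment in DMEM with fetal bovine serum. Whether each library had a culture of its own is not given in the sources used here, and every SD over the 3 libraries, like every p-value, may cover technical spread only. No group could be compared with another.

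MHC class I molecules display peptides from inside the cell to cytotoxic T cells. A polymorphic heavy chain pairs with the invariant light chain beta-2 microglobulin. The peptides are cut by the proteasome and carried into the endoplasmic reticulum by a transporter, where a loading complex fits them to the heavy chain. Nearly all nucleated cells make class I molecules, and interferons are well known to raise most genes of the pathway.

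Values are FPKM, which scales the fragments of a gene to its length in kilobases and to the library total, so levels of different genes are compared per length. Library totals recovered from the FPKM values were 14423209, 13959723 and 14307241 fragments. The sample labels name retina in their extraction text, although they give NIH3T3 as the cell line. All 9 fibroblast markers, among them *Col1a1*, *Vim* and *Pdgfra*, had an FPKM of at least 1 in every library, and their summed FPKM ranged from 9324 to 9439. None of the 8 retina markers did, and their summed FPKM ranged from 0.418 to 0.726. Of 10 haematopoietic markers, *Lyz2* and *Cd68* did, and the summed FPKM of the list was between 4.47 and 5.78. The defining marker *Ptprc* had 3 fragments in all libraries together, and *Cd3e*, *Itgam*, *Adgre1* and *Laptm5* were listed at 0. Of 3 endothelial markers, *Cdh5* had an FPKM of at least 1 in every library, and none of 4 epithelial markers did.

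NIH3T3 cells expressed the class I pathway at very unequal levels. Of the 10 genes, 9 had an FPKM of at least 1 in every library, beside 22.2% of all genes listed and 48.6% of protein-coding genes. *Psmb8* was the exception. Mean levels fell in the order *H2-D1*, *B2m*, *Tapbp*, *H2-K1*, *Tap2*, *Tap1*, *Psmb10*, *Nlrc5*, *Psmb9*, *Psmb8*. In FPKM, the ranges over libraries of neighbours in this order did not overlap for any of the 9 neighbouring pairs. The median of the mean levels was 14.5 FPKM, with *Psmb8* included. It was 0 over all genes listed, 0.830 FPKM over protein-coding genes, and 17.5 FPKM over the 12905 genes whose mean reached 1 FPKM, a set that leaves out low genes. *H2-D1* and *B2m* together held 86.7% ± 0.489 (SD, n = 3) of the fragments of the 10 genes.

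**Figure D1:**
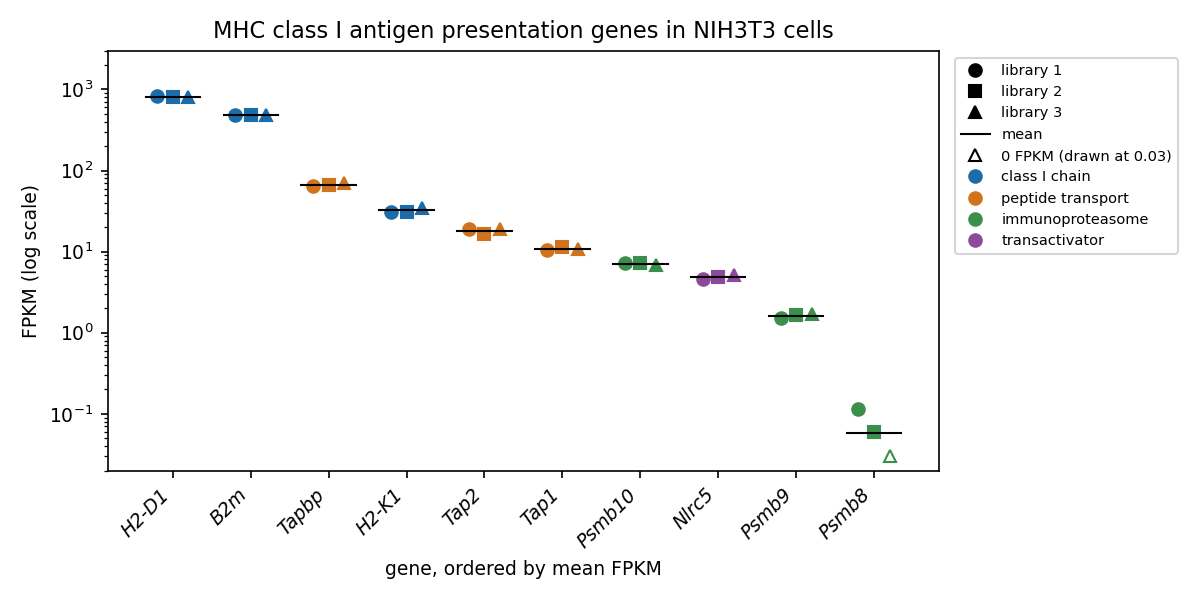
FPKM on a log axis for each of the 10 genes, ordered by mean, with 1 symbol per library (n = 3), a line at the mean and colours for the roles in the pathway. The symbols of each gene but *Psmb8* lie close together, as from 811.8 to 826.5 FPKM for *H2-D1*. Those of *Psmb8* lie apart, and its open symbol stands for 0 FPKM in library 3.

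*H2-D1* (ENSMUSG00000073411) encodes a classical class I heavy chain and had the highest level of the set. On GRCm38 it is annotated at positions 35262730 to 35267499 of chromosome 17 (plus strand). Library 1 had 826.5 FPKM, library 2 had 813.6 and library 3 had 811.8. The 3 libraries lay within a factor of 1.02 of each other. The mean of 817.3 ± 8.04 FPKM (SD, n = 3) ranked 79 among all genes, next to *Rpl27a*, a ribosomal protein gene, with 814.8 FPKM. The gene directly above it was *CT010467.1*, with 825.2 FPKM.

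*H2-K1* (ENSMUSG00000061232) encodes the other classical heavy chain of the set and is annotated at positions 33996017 to 34000347 of chromosome 17 (minus strand). It had 31.1 FPKM in library 1, 30.8 in the second and 34.6 in the third, on average 32.2 ± 2.10 FPKM (SD, n = 3). *H2-K1* therefore reached 3.76%, 3.79% and 4.26% of *H2-D1*, and no library of *H2-K1* came near a library of *H2-D1*. The log2 ratio of *H2-K1* to *H2-D1* was -4.66 ± 0.10 (SD, n = 3), computed from FPKM plus a pseudocount of 0.1. This difference was larger than the spread between libraries. The two-sided p was 0.25 by an exact sign-flip permutation test. It was the same for each ratio of FPKM plus 0.1 given below, and all 8 stayed at 0.25 after Benjamini-Hochberg adjustment. This p does not hold for every ratio recomputed with other lengths. With 3 libraries no smaller p can be reached, so no ratio could pass 0.05.

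Heavy chain genes of the H2 families resemble each other, so shared reads could affect their counts. Of all distinct 75-nt words that the isoforms of *H2-D1* hold, 5.56% also occurred in transcripts of other genes, and for *H2-K1* it was 3.10%. The overlap between the pair was 24 words, which is 0.926% of *H2-D1* and 0.642% of *H2-K1*. The reference sequence of both genes is that of C57BL/6J mice, and the alleles of this line were not analysed here. Whether reads that failed to map to the reference lowered the level of either gene was not tested, so the share of *H2-K1* holds for counted fragments only.

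The other H2 class I heavy chain genes were low beside *H2-D1*. Of 30 such genes found by name, pseudogenes included, 6 had an FPKM of at least 1 in every library and 9 were listed at 0. The 4 highest were *H2-M3* with 12.7 ± 0.697 FPKM, *H2-Q4* with 5.10 ± 0.337, *H2-T10* with 4.20 ± 0.181 and *H2-T23* with 3.56 ± 0.387 (SD, n = 3). *H2-M3* encodes a nonclassical chain that presents formylated peptides, and *H2-T23* encodes Qa-1, a ligand of natural killer cell receptors. Summed over the whole family, *H2-D1* made up 92.7% ± 0.259 of the heavy chain FPKM, *H2-K1* 3.65% ± 0.25 and the 30 others 3.63% ± 0.0394 (SD, n = 3). These shares also hold for counted fragments only, and whether reads of other alleles or genes were counted on *H2-D1* was not tested. Outside the H2 families, *Fcgrt*, which encodes the heavy chain of the neonatal Fc receptor and also pairs with beta-2 microglobulin, had 65.6 ± 3.01 FPKM (SD, n = 3). That was above *H2-K1* in every library. *Mr1*, which presents vitamin metabolites, had 21.9 ± 0.823 FPKM, and *Hfe*, a regulator of iron uptake, had 5.58 ± 0.455 FPKM (SD, n = 3). *Cd1d1* had 1 fragment in all libraries together and *Cd1d2* was listed at 0.

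*B2m* (ENSMUSG00000060802) encodes beta-2 microglobulin and is annotated at positions 122147686 to 122153083 of chromosome 2 (plus strand). The libraries gave almost the same level, 484.9, 484.5 and 482.8 FPKM in turn. The mean of 484.1 ± 1.11 FPKM (SD, n = 3) ranked 168 among all genes. Its coefficient of variation (CV) was 0.229%, and 47 of the 8203 genes whose mean reached 10 FPKM had a lower one. The median CV of those genes was 3.02%. Among the other class I genes at this level, the share of genes with a lower CV was 9.33% for *H2-D1*, 64.1% for *Tap1*, 72.8% for *Tapbp*, 87.0% for *H2-K1* and 93.0% for *Tap2*. *B2m* reached 56.5%, 57.4% and 57.0% of the summed FPKM of *H2-K1* and *H2-D1*, with a log2 ratio of -0.81 ± 0.01 (SD, n = 3).

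The order of *B2m* and *H2-D1* depended on the gene length. The FPKM of *H2-D1* used a length of 904 nt, the mean of its 4 annotated isoforms, while its longest isoform has 2102 nt. *B2m* has 1 isoform of 860 nt. With the longest isoform, the log2 ratio of *B2m* to the 2 heavy chains was 0.39 ± 0.01 (SD, n = 3), and *H2-D1* reached 0.726 times the level of *B2m*. *H2-D1* had more fragments than *B2m* in each library, with 10777, 10267 and 10500 against 6015, 5817 and 5941.

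The promoters of the chains are printed here because *H2-K1* and *H2-D1* carry the same set of searched motifs although their FPKM differed. The sequences are the 250 bases before a RefSeq start on GRCm38.p6, written 5′ to 3′ on the strand of the gene. A window was found for 8 of the 10 genes, and *Tap2* and *Nlrc5* had no match. RefSeq starts can differ from the annotated starts given above. The window of *H2-D1* lies wholly within its annotated gene, and the last bases of the *H2-K1* window shown lie within that gene. Capitals mark matches, on either strand, to the kappaB core GGGATTCCC, the core of the interferon-stimulated response element GAAANNGAA or its variant GAANNGAAA, the cyclic AMP response element half-site TGACG, and the Y box ATTGG. The element and its variant overlap where both match, and matches of these lengths also occur by chance.
H2-K1, minus strand, chr17:34000334-34000583: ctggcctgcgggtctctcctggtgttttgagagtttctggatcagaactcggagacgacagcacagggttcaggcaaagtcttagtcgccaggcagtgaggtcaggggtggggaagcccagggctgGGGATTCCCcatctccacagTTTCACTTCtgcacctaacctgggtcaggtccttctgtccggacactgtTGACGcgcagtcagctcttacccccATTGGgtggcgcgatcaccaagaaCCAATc
H2-D1, plus strand, chr17:35262844-35263093: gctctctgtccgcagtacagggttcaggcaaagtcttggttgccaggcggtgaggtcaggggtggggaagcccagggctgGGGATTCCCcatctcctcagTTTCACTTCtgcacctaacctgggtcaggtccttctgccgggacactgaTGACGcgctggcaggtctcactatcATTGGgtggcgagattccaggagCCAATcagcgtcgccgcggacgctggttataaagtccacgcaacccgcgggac
B2m, plus strand, chr2:122147437-122147686: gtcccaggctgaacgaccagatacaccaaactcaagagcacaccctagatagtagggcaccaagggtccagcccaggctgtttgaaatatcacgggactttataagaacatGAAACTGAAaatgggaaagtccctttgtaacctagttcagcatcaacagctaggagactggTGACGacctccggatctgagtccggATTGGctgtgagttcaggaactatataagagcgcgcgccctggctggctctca
The kappaB motif occurred in both heavy chain windows, as did the variant GAANNGAAA on the reverse strand, the half-site and the Y box. Over the 190 to 203 bases that could be aligned between *H2-D1* and the 2 windows of *H2-K1*, 87.2% to 87.4% were identical. Among 32851 promoter windows of the same length, 0.301% held the kappaB core, which is 99 windows. Those of *H2-K1*, *H2-D1*, *H2-Q6* and *H2-Q7* are among them. The core was searched after longer forms had been searched, so this share is no test of the match in the heavy chain windows. The variant occurred in 6.31% of windows, the half-site in 17.8% and the Y box in 33.8%. *B2m* had no match to the letters GGGATTCCC. This is a fixed spelling, so a kappaB site with other letters, in this or any other window, would be missed. Whether *B2m* lacks such a site was therefore not tested. Its window held GAAANNGAA, which 7.13% of windows hold, with the half-site and the Y box. These matches describe letters in the reference genome and not binding in these cells.

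The peptide transport genes were expressed at intermediate levels. *Tapbp* (ENSMUSG00000024308) encodes tapasin, which bridges the transporter and the heavy chain, and is annotated at positions 33915899 to 33929292 of chromosome 17 (plus strand). It had 64.0, 65.7 and 70.0 FPKM in libraries 1, 2 and 3, on average 66.6 ± 3.09 FPKM (SD, n = 3), and library 3 was highest. It lay 4.59-fold ± 0.228 (SD, n = 3) above the mean of *Tap1* and *Tap2*, a log2 ratio of 2.19 ± 0.07. Not divided by length, its fragments gave a log2 ratio of 1.50. *Zbtb22*, with 21.2 to 21.8 FPKM, overlaps the annotation of *Tapbp* on the same strand. Of the 75-nt words of *Tapbp*, 18.6% also occurred in other genes, mostly in *Gm19412*, which was listed at 0. Such words made up 8.27% of *Tap2* and 9.97% of *Psmb8*.

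*Tap1* (ENSMUSG00000037321) and *Tap2* (ENSMUSG00000024339) encode the partner chains of the peptide transporter. On chromosome 17 they lie on the plus strand, *Tap1* from 34187553 to 34197225 and *Tap2* from 34203527 to 34216321. *Tap1* had 10.5, 11.3 and 10.7 FPKM in libraries 1, 2 and 3, with a mean of 10.8 ± 0.423 (SD, n = 3). *Tap2* had 19.1, 16.4 and 19.1 FPKM, with a mean of 18.2 ± 1.53 (SD, n = 3). *Tap2* was lowest in library 2, where *Tap1* was highest. *Tap1* reached 55.0%, 68.8% and 55.9% of *Tap2*, with a log2 ratio of -0.74 ± 0.18 (SD, n = 3). This order rests on the gene length. *Tap1* had 358, 373 and 361 fragments against 391, 326 and 388 for *Tap2*, so the ranges overlapped, and the log2 ratio not divided by length was -0.01. With the longest isoforms, *Tap2* lay above *Tap1* in 2 of 3 libraries.

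The immunoproteasome subunits were low beside the subunits they replace. The catalytic beta subunits of the standard proteasome, encoded by *Psmb5*, *Psmb6* and *Psmb7*, can be exchanged for the products of *Psmb8*, *Psmb9* and *Psmb10*, which favours peptides that suit class I molecules. The summed FPKM of the inducible subunits was 8.84, 8.96 and 8.63 in libraries 1, 2 and 3, and that of the constitutive ones 212.4, 208.8 and 208.4. The inducible sum was 4.20% ± 0.0803 (SD, n = 3) of the constitutive sum, a log2 ratio of -4.56 ± 0.03. The ranges did not overlap for the sums or for any of the pairs.

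*Psmb10* (ENSMUSG00000031897) is annotated at positions 105935735 to 105938444 of chromosome 8 (minus strand). Its FPKM was 7.20, 7.26 and 6.91 in libraries 1, 2 and 3, with a mean of 7.13 ± 0.188 (SD, n = 3). *Psmb7*, its counterpart, had 26.0, 26.6 and 26.6 FPKM. *Psmb10* thus had the highest share of its counterpart, 27% ± 0.900 (SD, n = 3), with a log2 ratio of -1.88 ± 0.05. That ratio was -3.20 for fragments not divided by length, and -3.37 with the mean length of the protein-coding isoforms, an alternative added once the values were known.

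*Psmb9* (ENSMUSG00000096727) is annotated at positions 34181987 to 34187764 of chromosome 17 (minus strand). Its FPKM was 1.52, 1.63 and 1.72 in libraries 1, 2 and 3, with a mean of 1.62 ± 0.102 (SD, n = 3). These values rest on 24, 25 and 27 fragments. *Psmb6*, the counterpart, had 149.2, 141.5 and 143.2 FPKM. *Psmb9* reached 1.12% ± 0.0959 (SD, n = 3) of *Psmb6*, a log2 ratio of -6.39 ± 0.12, which became -7.34 with the longest isoforms and -5.79 with a pseudocount of 1.

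*Psmb8* (ENSMUSG00000024338) is annotated at positions 34197721 to 34201454 of chromosome 17 (plus strand). It was at the edge of detection, with 2 fragments in the first library, 1 in the second and none in the third. These correspond to 0.115, 0.0595 and 0 FPKM. The exact Clopper-Pearson 95% intervals were, in the same order, 0.0140 to 0.416, 0.00151 to 0.332 and 0 to 0.214 FPKM. They overlap and cover counting error only. The 1-sided limit that a count of 0 allows, taken as 3 fragments, is 0.174 FPKM in library 3, lower than the bound of the 2-sided interval. *Psmb5*, the counterpart, had 37.2, 40.7 and 38.6 FPKM. Over the pooled fragments, 1260 for *Psmb5* and 3 for *Psmb8*, the level of *Psmb5* was 664 times that of *Psmb8*, with an exact 95% interval of 227 to 3224 for counting error. The log2 ratio of *Psmb8* to *Psmb5* was -8.01 ± 0.58 (SD, n = 3) and moved to -5.23 with a pseudocount of 1. In mean level *Psmb8* lay between *Gm16071* with 0.0583 FPKM and *A930033M14Rik* with 0.0582 FPKM.

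**Figure D2:**
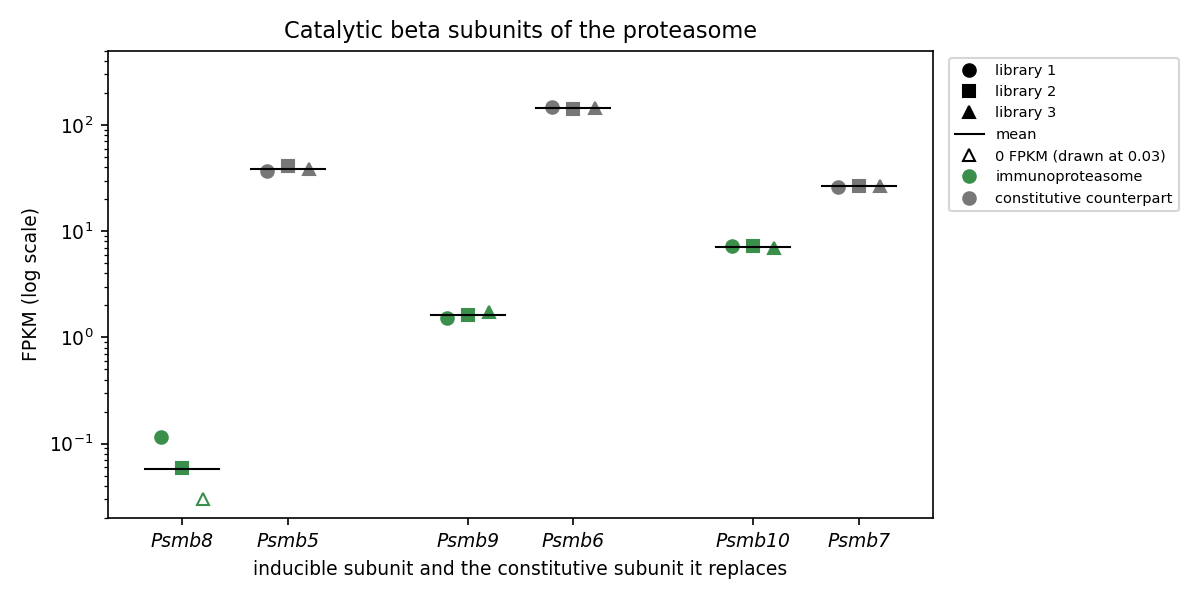
FPKM on a log axis for each inducible beta subunit and the constitutive subunit it replaces, with 1 symbol per library (n = 3) and a line at the mean. In every pair and library the inducible gene lies below its counterpart, from *Psmb10* at about 7 FPKM to *Psmb8*, whose open symbol stands for 0 FPKM in library 3.

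*Psmb9*, *Tap1*, *Psmb8* and *Tap2* are neighbours in a block of 34.3 kb on chromosome 17, within the class II region of the MHC. Along this block the level changed from gene to gene, with 1.62 FPKM for *Psmb9*, 10.8 for *Tap1*, 0.0583 for *Psmb8* and 18.2 for *Tap2* on average. The annotations of *Tap1* and *Psmb9* overlap by 212 nt on opposite strands, and no source used here says whether strand was used in counting. Both genes share 138 of their 75-nt words, which is 2.40% of *Tap1* and 3.44% of *Psmb9*. Their RefSeq starts are 226 bases apart and point away from each other. The 250-base windows before these starts share 225 bases, so the window of *Tap1* is shown, which holds the stretch between both starts. By the RefSeq start of *Psmb9* only the first bases of this window lie within *Psmb9*. By the annotated positions given above, the whole window does.
Tap1, plus strand, chr17:34187306-34187555: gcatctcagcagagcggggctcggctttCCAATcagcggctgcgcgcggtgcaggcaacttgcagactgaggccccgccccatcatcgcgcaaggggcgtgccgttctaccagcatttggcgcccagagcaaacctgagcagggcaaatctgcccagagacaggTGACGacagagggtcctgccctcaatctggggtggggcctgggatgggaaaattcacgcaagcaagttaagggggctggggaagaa
Capitals mark a Y box on the reverse strand and the half-site TGACG. This window held none of the kappaB or interferon-stimulated motifs searched, and the windows of *Psmb8* and *Psmb10*, with mean levels of 0.0583 and 7.13 FPKM, both held no match to any motif searched. The window of *Psmb8*, from 34197945 to 34198194, lies wholly within its annotated gene, and part of the window of *Psmb10* lies within its own. Bases before the annotated start of *Psmb8* were not searched.

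**Figure D3:**
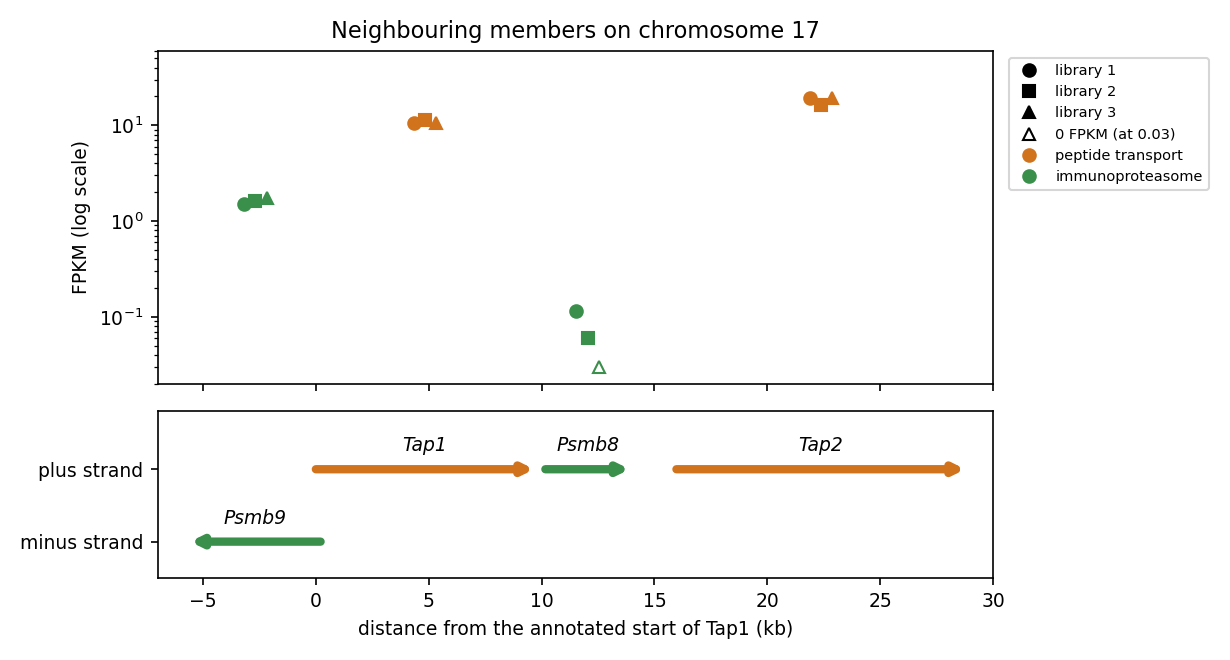
FPKM on a log axis (upper panel, 1 symbol per library, n = 3) above a map of *Psmb9*, *Tap1*, *Psmb8* and *Tap2* drawn to scale (lower panel, arrows point in the direction of transcription), with the distance from the annotated start of *Tap1* in kb. *Psmb8*, at 0 to 0.115 FPKM, lies between *Tap1* and *Tap2*, which both exceed 10 FPKM in every library.

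*Nlrc5* (ENSMUSG00000074151) encodes the transactivator that acts on class I promoters, and is annotated at positions 94434356 to 94527272 of chromosome 8 (plus strand). Its FPKM was 4.56, 4.87 and 5.08 in libraries 1, 2 and 3, with a mean of 4.84 ± 0.259 (SD, n = 3). It rests on 183, 189 and 202 fragments. With a longest isoform of 7578 nt in place of the 2780 nt behind the FPKM, the mean was 1.77 FPKM. *Ciita*, the related transactivator of class II genes, had 0.123 to 0.281 FPKM.

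Of 15 class I regulators, 14 had an FPKM of at least 1 in every library, all but *Ciita*, and the median level was 29.9 FPKM. *Nfkb1*, an NF-kB subunit, had the highest level with 81.1 ± 0.783 FPKM (SD, n = 3). Of the RFX proteins that bind class I promoters together, *Rfxap* had 17.1 ± 2.43, *Rfx5* 11.7 ± 0.232 and *Rfxank* 2.15 ± 0.252 FPKM (SD, n = 3), the lowest of the list above 1 FPKM. The interferon regulatory factor *Irf1* had 29.9 ± 1.07 FPKM, and *Irf2* had 32.2 ± 1.24 FPKM (SD, n = 3). *Irf9*, another member of this factor family, had 4.29 ± 0.124 FPKM (SD, n = 3). Among 9 interferon receptors, kinases and ligands, all 7 receptors and kinases had an FPKM of at least 1 in every library, from *Tyk2* with 10.6 to *Jak1* with 276.8 FPKM. The ligands *Ifng* and *Ifnb1* were listed at 0.

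The general folding machinery that serves class I molecules was abundant. All 8 peptide loading and folding factors had an FPKM of at least 1 in every library, with a median level of 292.1 FPKM. *Hspa5*, the chaperone BiP, had 3664 ± 18.4 FPKM, and the loading complex members *Pdia3*, *Calr* and *Canx* had 581.9 ± 9.91, 564.2 ± 7.55 and 423.5 ± 2.19 FPKM (SD, n = 3). The more dedicated factors were lower. *Erap1*, which trims peptides, had 16.7 ± 1.16 FPKM, and *Tapbpl*, a tapasin relative that edits peptides, had 5.69 ± 0.507 FPKM (SD, n = 3). Constitutive 20S beta subunits ranged from *Psmb7* with 26.4 ± 0.339 FPKM to *Psmb4* with 286.0 ± 11.3 FPKM (SD, n = 3). The thymus subunit *Psmb11* had 3 fragments in all. The proteasome activator genes *Psme1* and *Psme2*, whose products form the PA28 cap, had 60.9 ± 1.63 and 92.2 ± 4.31 FPKM (SD, n = 3). Of the 7 activator and assembly genes, *Psme3* was highest with 147.4 ± 2.44 FPKM and *Psmg1* lowest with 18.0 ± 1.91 FPKM (SD, n = 3).

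**Figure D4:**
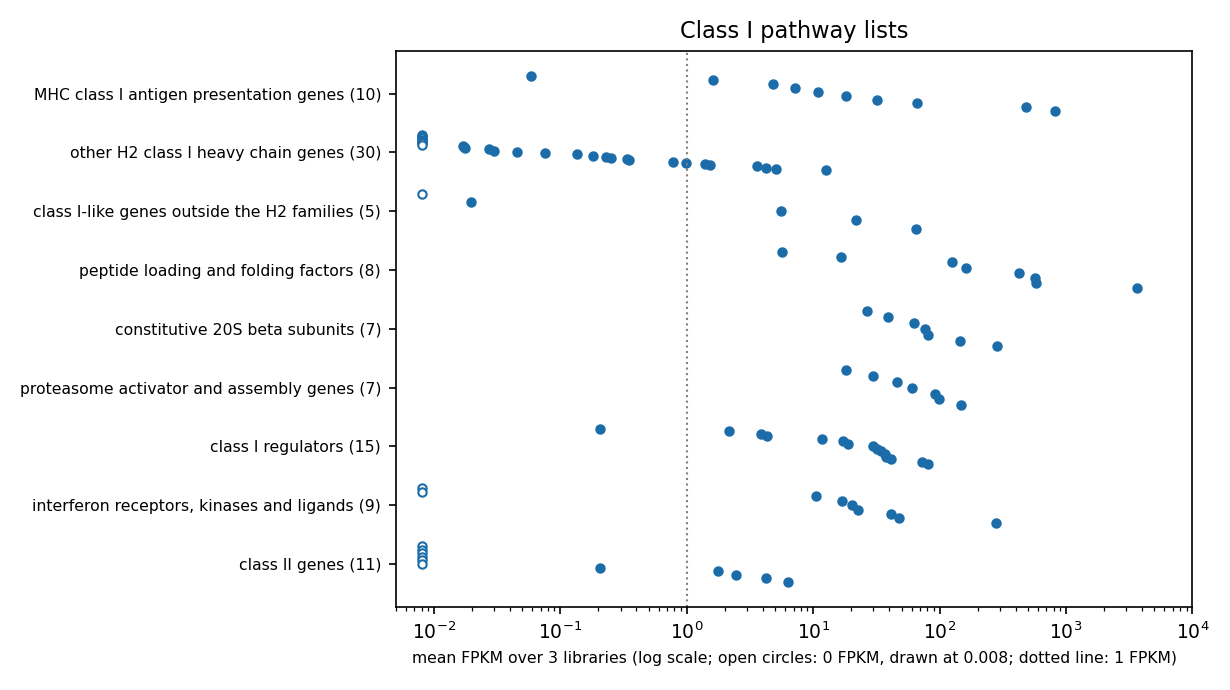
Mean FPKM over 3 libraries on a log axis, 1 circle per gene (open at 0 FPKM), for the 10 class I genes and 8 lists of related genes, with the number of genes in brackets; height within a row only separates the circles. All loading and folding factors and constitutive subunits lie to the right of the dotted line at 1 FPKM, while most other H2 heavy chain genes lie to its left.

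The fragments of each gene were compared between libraries. A chi-square test of each gene's fragments over the libraries, with Benjamini-Hochberg adjustment over 15130 genes with at least 5 expected fragments in each library, called 1.82% of genes (0.709% without library 1). Of the 10 class I genes, 9 could be tested and 0 were called, with adjusted p-values from 0.614 for *Tap2* to 0.995 for *B2m*. At an unadjusted p under 0.05 the count was also 0, beside 9.08% of all genes tested. Without library 1 or library 3 it was 1, *Tap2*, and without library 2 it was 1, *Tapbp*. The share of all genes at this unadjusted limit was computed with all 3 libraries only, so these counts of 1 have no share beside them. The median chi-square was 1.11 for the 9 genes and 1.58 over all genes tested. The CV over libraries was above that of counting error for *H2-K1* (6.53% against 4.65%), *Tapbp* (4.64% against 3.10%) and *Tap2* (8.40% against 5.21%). For *H2-D1* it was 0.984% against 0.975%. It was below for the other genes, and for *B2m* it was 0.229% against 1.30%. No difference between libraries passed the adjusted test for these genes at this depth.

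**Figure D5:**
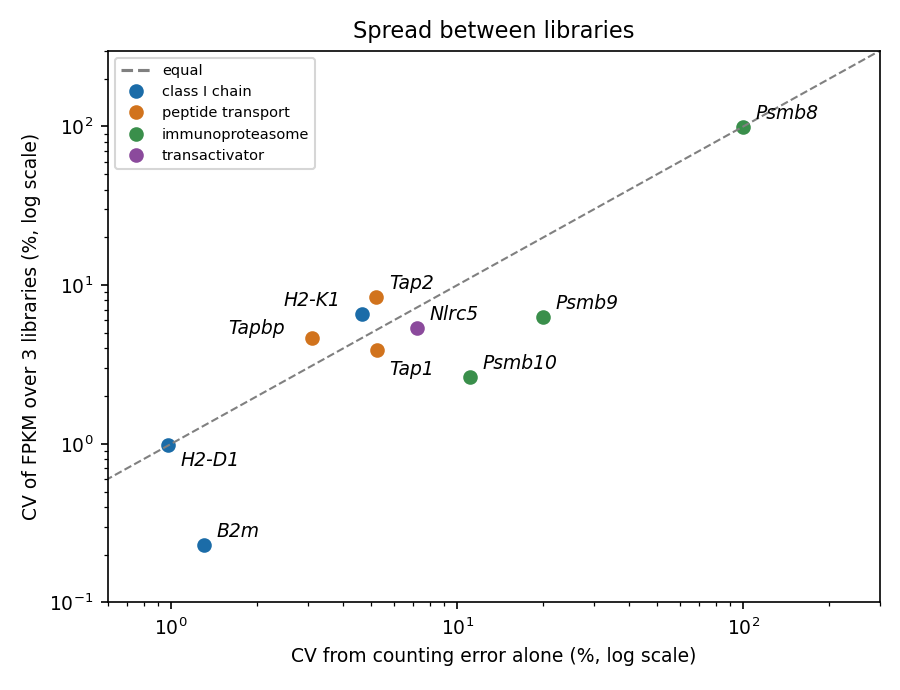
CV of FPKM over 3 libraries against the CV that counting error alone gives (both in %, log axes), 1 point for each of the 10 class I genes, coloured by role, with a dashed line where both are equal. *B2m* lies farthest below the line, while *Tap2*, *H2-K1* and *Tapbp* lie above it by a small margin.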

How the data were processed

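Total RNA of NIH3T3 cells was made into UMI libraries and sequenced as 150 nt paired-end reads. Per the methods and the submitters' processing notes, UMI-tools 1.0.0 was used to find the UMIs, HISAT2 2.0.4 to map the reads, duplicates of 1 UMI were removed, and genes were counted with HTSeq 0.6.1. The notes also list DESeq 1.10.1. The authors deposited FPKM values, 1 column per library, in 2 tables that hold identical values. The genome build is not given in the sources used here, nor is the annotation behind the counts. Whether reads with several mapping positions were kept is not stated either.

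The class I genes, lists and tests were chosen with earlier results of these data known. FPKM values were used as deposited, with no count model. Each FPKM equals fragments divided by the mean isoform length of the gene in GENCODE M21 (GRCm38) and by the library total. Solving for fragments gave whole numbers, within 0.01, in all libraries for 99.1% of the 26193 genes with a value above 0. Totals came from genes with 1 isoform and 1 fragment, and the recovery and the chi-square test were tested on simulated data. Counting CV is 1 over the root of the mean fragments, in percent. Ratios were taken within libraries on log2(FPKM + 0.1) and tested with an exact sign-flip permutation test. Shared sequence is the percentage of distinct 75-nt words of a gene's isoforms, on either strand, found in another gene. Promoter windows came from RefSeq on GRCm38.p6, and the motif letters searched are cores of longer forms that had been searched first. Named genes are the 10 members, the constitutive counterparts, the highest and lowest of each list above 1 FPKM, the lists of loading factors, activators and regulators (1 regulator is not reported here), the 4 highest other heavy chain genes, and neighbours in level of the highest and lowest member. Genes named beyond this rule (markers, *Fcgrt*, *Mr1*, *Hfe*, *Cd1d1*, *Zbtb22*, *Gm19412*, *H2-Q6*, *H2-Q7*, class II genes) were chosen after their values were seen. No likeness of pattern was computed, since 3 libraries of 1 condition hold none. The alternatives were leaving out each library, other pseudocounts, limits, scalings and gene lengths, adding paralogs, and other minimums in the chi-square test. Python 3.11.15, numpy 2.4.6, pandas 2.3.3, scipy 1.17.1 and matplotlib 3.10.9 were used.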

Additional observations from a re-analysis of the deposited data

How the results depend on the processing

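Of 65 recomputed log2 ratios, 64 kept their sign. The exception was *B2m* against *H2-K1* plus *H2-D1*, at 0.39 with the longest annotated isoform, -0.81 as reported and between -0.89 and -0.71 in the other settings, where the first alternative by construction divides *H2-D1* by a longer length. By construction, other pseudocounts or leaving out a library could not change a sign that all 3 libraries shared. *Tap1* against *Tap2* is counted as kept at -0.01 not divided by length and at -0.19 with the longest isoform, against -0.74 as reported. In both of these settings the order did not hold in every library. The number of genes with at least 1 FPKM in every library stayed at 9 without each library and under the other scalings. It was 6 at a limit of 10 FPKM, where the share of all genes in every library was not computed. Of the 55573 genes listed, 8203 had a mean of at least 10 FPKM. The count was not recomputed with other gene lengths, and with the longest isoform *Psmb9* had a mean of 0.617 FPKM, under the limit of 1. Of 80 recomputed levels, 56 stayed within 1 SD of the value reported, and the others came from other gene lengths or from scaling to TPM, which set *H2-D1* to 1184 and *B2m* to 701.5. In the chi-square test, 0 of the 10 genes were called under each setting, while the calls over all genes were 275, against 107 without library 1, 184 without library 2, 186 without library 3 and 249 to 264 in the remaining settings. No ratio could reach p under 0.25. No ratio without a pseudocount was possible for *Psmb8*, which is at 0 in library 3. No paired analysis was possible because all 3 libraries belong to a single group.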

Other observations

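Genes of the class II pathway, which in professional antigen presenting cells loads peptides from outside the cell, were split in these fibroblasts. Of 11 such genes, 4 had an FPKM of at least 1 in every library, 6 were listed at 0, and the remaining gene was *Ciita*, given above. Those at 0 were *H2-Aa*, *H2-Ab1*, *H2-Eb1* and *H2-Eb2*, which encode class II chains, and *H2-Oa* and *H2-Ob*, which encode a modulator of loading. In contrast, *Cd74*, the invariant chain, had 4.50, 4.58 and 3.68 FPKM in libraries 1, 2 and 3. *H2-DMa*, *H2-DMb1* and *H2-DMb2*, whose products exchange class II peptides, had 6.38 ± 0.730, 2.44 ± 0.127 and 1.76 ± 0.0808 FPKM (SD, n = 3). Of the 10 haematopoietic markers, *Lyz2* had 2.54 ± 0.368 FPKM and *Cd68* had 2.12 ± 0.544 FPKM (SD, n = 3), similar in size to *H2-DMb1* and *H2-DMb2*, while *Ptprc* was at 0, 0.0493 and 0.0241 FPKM in libraries 1, 2 and 3. Their part in the class II values was not tested.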
